A study of Mus musculus with 4 samples.

Results

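The 7 genes described here encode the interstitial collagenases, the gelatinases and the membrane-type enzymes among the matrix metalloproteinases (MMPs) on a quantitative PCR array of 84 genes of the extracellular matrix (ECM) and cell adhesion. They were taken by well position, as E05 (*Mmp13*), E06 (*Mmp14*), E07 (*Mmp15*), E08 (*Mmp1a*), E09 (*Mmp2*), E12 (*Mmp8*) and F01 (*Mmp9*). The deposited wells carry no gene names. The names follow the alphabetical order of the genes on this array, anchored at wells that the study's stated fold changes identify, among them those of *Mmp13* and *Mmp9*, and every name below rests on that layout.

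The study asked how loss of *Vegf* changes ECM genes in male and female osteoblasts (OBs), the cells that form bone. OBs were isolated from mice with floxed *Vegf* alleles at an age of 4 days and were kept apart by sex. Adenovirus carrying Cre-recombinase with GFP gave the female OBVEGFKO and male OBVEGFKO cultures, and adenovirus carrying GFP without Cre gave the female WT and male WT cultures, so the WT cells also had floxed alleles and were also transduced. All cultures were held with virus for 6 days and then in 1% serum for 24 h, and 500 ng of total RNA from each was reverse transcribed. Each of the 4 groups was 1 culture (n = 1), so no difference below has a replicate error, none was tested and none has a p-value. The study checked the knockdown by an immunoassay of VEGF protein, and neither this nor the transcript of *Vegf* was analysed here.

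MMPs are zinc-dependent endopeptidases that are made as inactive proenzymes and cut proteins of the ECM. Collagenases open the triple helix of fibrillar collagens such as the type I collagen of bone, and gelatinases degrade the denatured chains as well as basement membrane collagen. Membrane-type MMPs are anchored at the cell surface, where MMP14 together with the inhibitor TIMP2 activates the MMP2 proenzyme. In bone, MMP13 is the main collagenase of OBs and hypertrophic chondrocytes, MMP9 is best known from osteoclasts and MMP8 from neutrophils.

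The readout of each well is its Ct (cycle threshold), the number of PCR cycles needed to reach a fixed fluorescence, and 1 cycle less corresponds to 2-fold more template. All 7 genes were detected in all 4 cultures, below the highest Ct of 35 that was read as the limit of detection. Their median Ct was 26.03 and 21.92 in the WT and OBVEGFKO cultures of female cells and 24.57 and 21.86 in those of male cells. The median of all 84 wells was 25.96, 21.92, 25.53 and 22.56 in the same order, so the median of the 7 genes lay around the middle of the array. The single genes were spread widely, in female WT cells from rank 11 (*Mmp2*) to rank 76 (*Mmp15*) of 84 by Ct. *Mmp2* had the lowest Ct of the 7 in every culture and *Mmp15* the highest. In female WT, female OBVEGFKO and male WT cells the order was *Mmp2*, *Mmp14*, *Mmp1a*, *Mmp13*, *Mmp9*, *Mmp8* and *Mmp15*, and in male OBVEGFKO cells *Mmp1a* stood before *Mmp14*. The assays differ in amplicon and may differ in efficiency, so this is an order of Ct values and not of transcript numbers.

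**Figure D1:**
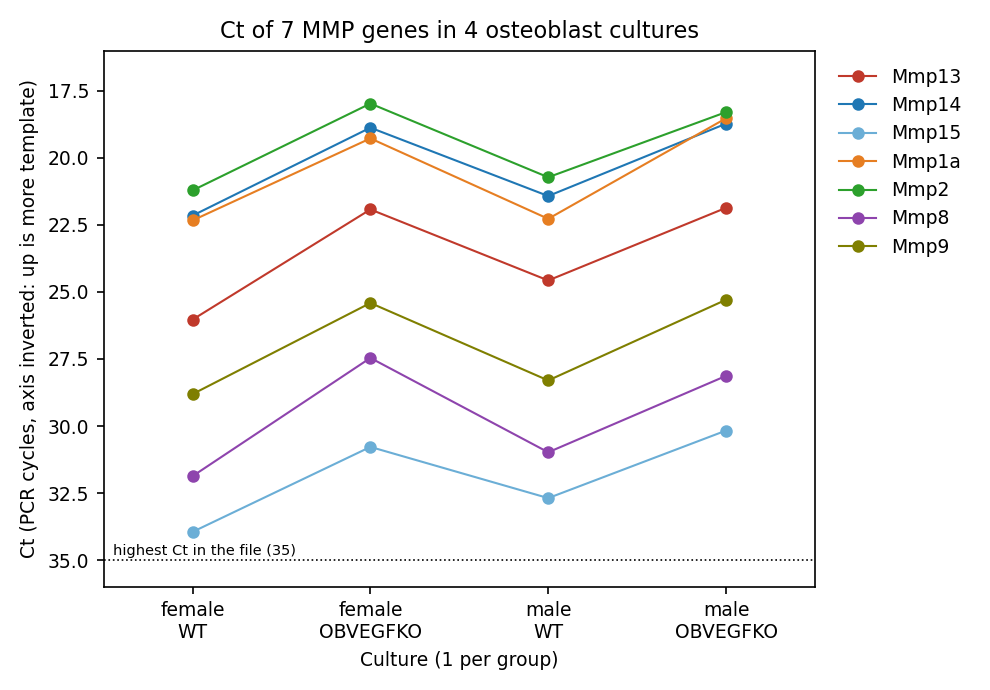
Ct in PCR cycles (vertical axis, inverted) of the 7 MMP genes in the 4 cultures (horizontal axis, 1 culture per group), with lines that join the values of 1 gene and stand for no series. Every gene has a lower Ct in the OBVEGFKO than in the WT culture of the same sex, and *Mmp1a* is above *Mmp14* only in the male OBVEGFKO culture.

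Most wells of the array had lower Ct values in OBVEGFKO than in WT cells, although the mass of RNA was equal. Among the 76 wells below 35 in all 4 cultures, all had a lower Ct in the OBVEGFKO culture (100.0% in female and 100.0% in male cells), as had the 7 MMP genes. This filter leaves out 2 wells whose Ct was higher after deletion in male cells, *Hc* (34.93 to 35) and *Itgae* (34.55 to 35). The 69 of these wells outside the 7 genes served as the reference. Their median change from WT to OBVEGFKO was −3.28 cycles in the female pair (interquartile range −3.56 to −2.92) and −2.84 in the male pair (−3.15 to −2.57). What part of this shared shift lies in the amount of template was not tested, and the housekeeping wells were not analysed here. Each gene is therefore given by its Ct and by its departure, the log2 difference of its change from the reference. A departure of 1 is 2-fold more than the median of the other wells. After normalisation to housekeeping genes, the study reported *Mmp13* and *Mmp9* as upregulated in OBVEGFKO cells of either sex. A small departure thus places a gene beside the other wells and does not show that its expression was unchanged. Single wells of *Lamc1*, *Sele* and *Timp1* stood far apart, with departures of 15.02, at least 16.07 (its WT well was at 35) and 7.44 from female WT to female OBVEGFKO cells, and none of the 7 MMP wells did so. *Lamc1* encodes a widely expressed laminin chain, yet its well had Ct values of 31.97 and 31.56 in the WT cultures, and its name rests on the layout alone. In bulk RNA, fewer cells that express a gene and less RNA per cell cannot be told apart.

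Of the 7 genes, only *Mmp8* in female cells was at least 2-fold above the reference from WT to OBVEGFKO, where 7.89% of the 76 wells were, and none was at least 2-fold below it, where 1.32% were. None of the 7 was at least 2-fold above or below in the male pair, where 7.89% and 1.32% of the wells were. Without normalisation all 7 were at least 2-fold higher in either sex, but so were all of the 76 wells. With the difference between the median Ct of all wells as the reference, *Mmp8* was at 0.37 in the female pair. The median departure of the 7 genes was 0.00 in female and −0.13 in male cells, and that of all 76 wells was 0.00 in both sexes. With the difference between the median Ct of all wells as the reference, the female median of the 7 genes was −0.76. *Lamc1*, *Sele* and *Timp1* passed from above the median of all wells in female WT to below it in female OBVEGFKO cells. They thus contribute to this reference, and values of the female pair under it, here and below, include their part. Against the other wells, the departure furthest from 0 was that of *Mmp8* in the female and of *Mmp1a* in the male pair. The robust SD of the reference wells, the scaled median absolute deviation, was 0.53 in female and 0.46 in male cells. It holds true differences between genes as well as measurement error.

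Among the collagenases, *Mmp13* had Ct values of 26.03 and 21.92 in the WT and OBVEGFKO cultures of female cells and 24.57 and 21.86 in those of male cells. The female WT culture stood apart with the least *Mmp13*, while both OBVEGFKO cultures were nearly level. The Ct was lower in OBVEGFKO than in WT cells by 4.11 cycles for the female pair and 2.71 for the male pair, which gave departures of 0.83 and −0.13. Relative to the rest of the array, *Mmp13* was 1.78-fold above the reference in the female pair and close to it in the male pair. The female departure was 0.46 with the mean of the other wells as the reference. It was 0.07 with the difference between the median Ct of all wells. All wells include the 7 genes, and *Mmp13* lay near their median in female WT (25.96) and at it in female OBVEGFKO cells (21.92). A value near 0 was thus set in advance and is no check of the departure. Between WT cultures the Ct was lower by 1.46 cycles in male cells, a departure of 1.05 and the third highest of 76, and between OBVEGFKO cultures the departure was 0.07. The latter was 0.38 with the mean of the other wells and 0.7 with the difference between the median Ct of all wells. Each culture enters 2 of these comparisons, and the larger female departure and the larger WT departure share the female WT value.

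The distance between 2 assays needs no array reference and takes a single gene in its place. The Ct of *Mmp13* was above that of *Mmp14* by 3.88 and 3.05 cycles in the WT and OBVEGFKO cultures of female cells and 3.15 and 3.14 in those of male cells. In 3 cultures the distance was thus nearly constant, and female WT cells alone had less *Mmp13* for their *Mmp14*. Against *Mmp1a* the distance was 3.70, 2.65, 2.30 and 3.34 cycles in the same order, again largest in female WT cells but not level among the other 3 cultures. Against *Col1a1*, the chain of the type I collagen that MMP13 cuts, the distance was 7.16, 6.36, 6.11 and 6.67 cycles.

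*Mmp1a*, a rodent counterpart of the human interstitial collagenase MMP1, had Ct values of 22.33 and 19.27 in the WT and OBVEGFKO cultures of female cells and 22.27 and 18.52 in those of male cells. The WT cultures differed by 0.06 cycles, and the male OBVEGFKO culture had the most *Mmp1a*. The Ct was lower in OBVEGFKO cells by 3.06 cycles for the female pair and 3.75 for the male pair, with departures of −0.22 and 0.91. The female departure was −0.59 with the mean of the other wells and −0.98 with the difference between the median Ct of all wells. *Mmp1a* was the only 1 of the 7 genes whose Ct difference between WT and OBVEGFKO was larger in male cells. Its distance to *Mmp2* was 1.12 cycles in female WT, 1.30 in female OBVEGFKO and 1.55 in male WT cells, but 0.23 in male OBVEGFKO cells. The primer sequences are not given in the sources used here, and whether the assay also amplifies the related gene *Mmp1b* was not tested.

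*Mmp8*, the collagenase of neutrophils, had Ct values of 31.87 and 27.46 in the WT and OBVEGFKO cultures of female cells and 30.98 and 28.13 in those of male cells. It had the least template in female WT and the most in female OBVEGFKO cells. The Ct was lower in OBVEGFKO cells by 4.41 cycles in the female pair, 2.19-fold above the reference with a departure of 1.13, the sixth highest of 76. In the male pair it was lower by 2.85 cycles, a departure of 0.01. Wells of high Ct scattered more. Among 18 other wells with a highest Ct over 30 and under 35, the median size of the departure was 0.76 for the female and 0.50 for the male pair. In 39 wells whose Ct never passed 26 it was 0.19 and 0.23. Of those 18 wells, 4 were at least 2-fold above the reference in female cells, as *Mmp8* was. These 4 include *Lamc1* and *Timp1*, which stood apart.

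Of the gelatinases, *Mmp2* had Ct values of 21.21 and 17.97 in the WT and OBVEGFKO cultures of female cells and 20.72 and 18.29 in those of male cells, with departures from WT to OBVEGFKO of −0.04 in female and −0.41 in male cells. *Mmp9* had Ct values of 28.81, 25.41, 28.30 and 25.29 in the same order, with departures of 0.12 and 0.17. With the difference between the median Ct of all wells as the reference, the female departures were −0.8 for *Mmp2* and −0.64 for *Mmp9*. With the mean of the other wells they were −0.41 and −0.25. Among OBVEGFKO cultures the male culture had less *Mmp2* than the female culture, and for *Mmp9* the OBVEGFKO cultures differed by 0.12 cycles. Measured against the rest of the array, the level of *Mmp9* ranged over 0.21 on the log2 scale across the 4 cultures, the narrowest of the 7 genes and rank 71 of 76 from the widest. This range and rank hold for that reference alone. Between OBVEGFKO cultures the departure of *Mmp9* was 0.13, but 0.76 with the difference between the median Ct of all wells. The distance of *Mmp9* to *Mmp2* was 7.60, 7.44 and 7.58 cycles in female WT, female OBVEGFKO and male WT cells and 7.0 in male OBVEGFKO cells.

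Of the membrane-type enzymes, *Mmp14*, which encodes MT1-MMP, had Ct values of 22.15 and 18.87 in the WT and OBVEGFKO cultures of female cells and 21.42 and 18.72 in those of male cells. It matched the reference in female cells with a departure of 0.00 and was −0.14 in male cells. *Mmp15*, which encodes MT2-MMP, had Ct values of 33.95, 30.78, 32.69 and 30.17 in the same order and departures of −0.11 and −0.32. With the difference between the median Ct of all wells as the reference, the female departures were −0.76 for *Mmp14* and −0.87 for *Mmp15*. *Mmp15* was close to the limit of detection in WT cells. *Mmp14* lay 11.80 and 11.91 cycles before *Mmp15* in the female WT and OBVEGFKO cultures and 11.27 and 11.45 cycles in the male ones.

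**Figure D2:**
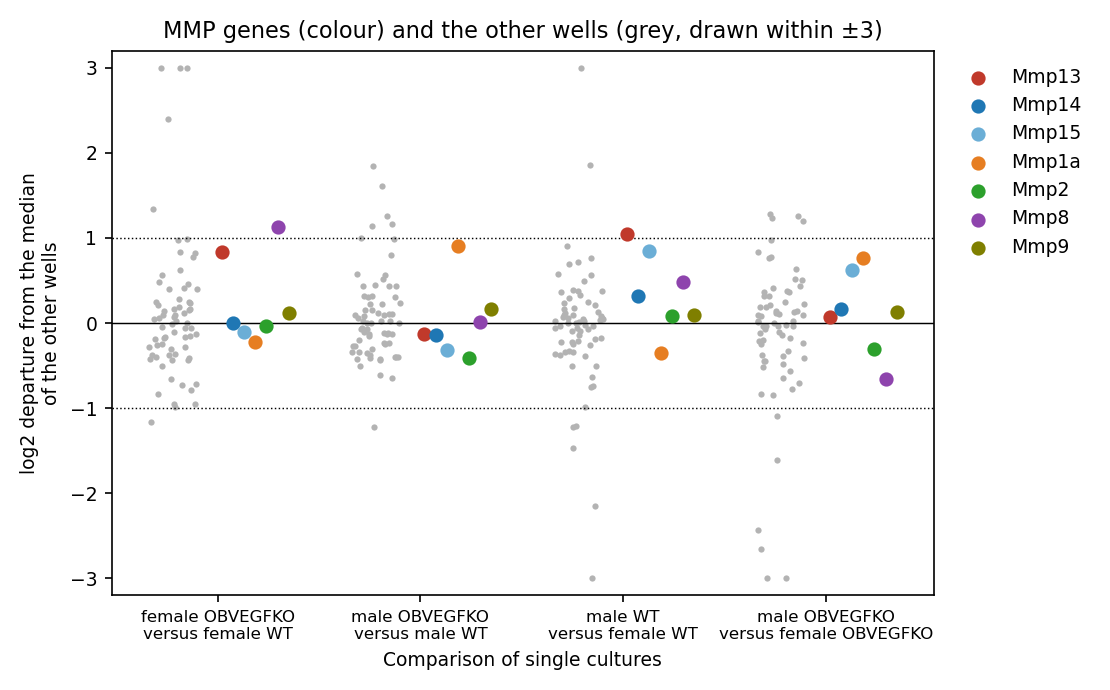
Log2 departure from the median change of the other wells (vertical axis) in 4 comparisons of single cultures (horizontal axis), with the 7 MMP genes in colour, the 69 other wells in grey (values beyond ±3 drawn at ±3) and dotted lines at 2-fold. *Mmp8* (1.13) in the female pair and *Mmp13* (1.05) between WT cultures are the coloured points beyond a dotted line.

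Between the sexes, all 7 genes had a lower Ct in male WT than in female WT cells, from 0.06 cycles for *Mmp1a* to 1.46 for *Mmp13*. The same direction was found in 85.5% of the 76 wells, and the reference differed by −0.41 cycles. Relative to this, 6 of the 7 genes were above the reference in male WT cells, as were 40 of the 76 wells. *Mmp1a* was below it at −0.35 (0.06 without normalisation). The median was 0.32 for the 7 genes, against 0.03 for all 76 wells. *Mmp13* at 1.05 was the only 1 at least 2-fold above, against 3.95% of the wells, and none was at least 2-fold below, against 6.58%. *Mmp15* followed at 0.85 and *Mmp8* at 0.48, both at a Ct above 30 in WT cells, where 18 other wells had a median departure of 0.65 in size. *Mmp14* was at 0.32, *Mmp9* at 0.10 and *Mmp2* at 0.08, within the robust SD of 0.37. Without a reference, *Mmp14* was 1.66-fold and *Mmp2* 1.40-fold higher in male WT cells. For both genes, and more so for *Mmp2*, most of the difference in Ct was shared with the array.

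In OBVEGFKO cultures the reference differed by 0.01 cycles between the sexes, so that Ct and departure give nearly the same picture. A lower Ct in male cells was found for *Mmp1a*, *Mmp15*, *Mmp14*, *Mmp9* and *Mmp13*, 5 of the 7 genes, against 50% of the wells. None of the 7 was at least 2-fold above or below the reference, against 5.26% and 7.89% of the wells. *Mmp1a* had the highest departure at 0.76, 1.69-fold above the reference, followed by *Mmp15* at 0.62. *Mmp8* was lowest at −0.66, or 1.58-fold below, and *Mmp2* was at −0.31. With the difference between the median Ct of all wells as the reference, *Mmp1a* (1.39) and *Mmp15* (1.25) were past 2-fold, *Mmp8* was at −0.03 and *Mmp2* at 0.32. *Mmp14* was then at 0.79, *Mmp9* at 0.76 and *Mmp13* at 0.7. That reference moves all wells alike, and the share of wells past 2-fold under it was not counted. With the median change of the other wells, the median of the 7 genes was 0.13, against 0.02 for all 76 wells.

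The male minus female difference in the departure from WT to OBVEGFKO was above 0 for *Mmp1a* (1.13) and *Mmp9* (0.05), 2 of the 7 genes, against 48.7% of the 76 wells. It was −0.14 for *Mmp14*, −0.21 for *Mmp15*, −0.37 for *Mmp2*, −0.96 for *Mmp13* and −1.12 for *Mmp8*. The number above 0 depended on the scaling, with 1 gene without normalisation, 4 with the mean of the other wells and 5 with the difference between the median Ct of all wells. These scalings move all wells alike, so the share of all wells moves too, and it was not counted under them. Under each of these, *Mmp1a* stayed positive (0.69, 1.41 and 1.76), *Mmp13* negative (−1.40, −0.68 and −0.33) and *Mmp8* negative (−1.56, −0.84 and −0.49). The collagenases thus differed in direction among themselves, while the sign of *Mmp2*, *Mmp9*, *Mmp14* and *Mmp15* turned with the scaling. *Mmp1a* was the 1 gene of the 7 with a difference of at least 2-fold towards male cells, against 10.5% of the wells, and *Mmp8* the 1 towards female cells, against 6.58%. In the 39 other wells whose Ct never passed 26, as in that of *Mmp1a*, none differed by 2-fold towards male cells and 1 did towards female cells. In the 18 other wells in the Ct range of *Mmp8*, 5 differed by 2-fold towards male and 3 towards female cells, with a median size of 0.87. The 3 include *Lamc1* and *Timp1*, which stood apart. Whether the sexes differ in this respect was not tested.

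The other 5 MMPs on the array were the stromelysins *Mmp3*, *Mmp10* and *Mmp11*, matrilysin *Mmp7* and macrophage elastase *Mmp12*. *Mmp7* was at the limit of 35 in every culture and has no fold change. From WT to OBVEGFKO, *Mmp3* had departures of −0.06 in female and −0.41 in male cells, *Mmp10* of 0.24 and 0.11, *Mmp11* of −0.10 and −0.24, and *Mmp12* of 0.16 and 0.06. The 4 measured genes therefore stayed within 2-fold of the reference in both sexes, with medians of 0.05 and −0.09.

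The tissue inhibitors of metalloproteinases (TIMPs) bind active MMPs. *Timp2* had the lowest Ct of the 3 in all cultures, at 20.33 and 16.64 in the WT and OBVEGFKO cultures of female cells and 19.53 and 16.69 in those of male cells, and departures of 0.41 in female and 0.00 in male cells. *Timp3* had departures of 0.25 and 0.44. The distance of *Mmp14* to *Timp2*, its partner in MMP2 activation, was 1.82, 2.23, 1.89 and 2.03 cycles in the order above, and that of *Mmp2* to *Timp2* was 0.88, 1.33, 1.19 and 1.60 cycles. Both distances were larger in OBVEGFKO than in WT cells of either sex, which means less *Mmp14* and *Mmp2* for the same *Timp2*. The distances varied by 0.41 and 0.72 cycles in all. *Timp1*, an inhibitor that binds the MMP9 proenzyme, had Ct values of 30.02, 19.30, 22.39 and 20.16. Its departure in the male pair was −0.61. Its female WT well stood apart, with departures of 7.44 in the female pair and 7.22 between WT cultures, and no balance of *Mmp9* and *Timp1* is read from that culture. In the other 3 cultures *Mmp9* was 6.11, 5.91 and 5.13 cycles above *Timp1*.

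The 4 ADAMTS genes encode related proteases of procollagen and proteoglycans, and none departed by 2-fold from WT to OBVEGFKO. *Adamts1*, an aggrecanase and versicanase, had departures of −0.95 in female and −0.40 in male cells, and *Adamts2*, a procollagen N-proteinase, of −0.95 and −0.20. *Adamts5*, an aggrecanase, was at 0.25 and 0.45, and *Adamts8* at 0.82 and 0.31, with medians of −0.35 and 0.06 for the 4 genes. Among the 7 measured of 8 collagen genes, the substrates of these MMPs, *Col2a1* of cartilage collagen was the only 1 past 2-fold, with 1.16 in the male pair, and the medians were −0.16 in female and −0.06 in male cells. Among 5 surface genes that dock MMPs or serve in their activation, *Itgb3* was at −1.16 in the female and 0.31 in the male pair, and *Itgav*, the other chain of an integrin that binds MMP2, at 0.28 and 1.14, with medians of 0.14 and 0.31 for the 5 genes. None of the 6 matricellular and adhesive genes (*Thbs1*, *Thbs2*, *Spp1*, *Fn1*, *Tnc*, *Sparc*) was past 2-fold in either sex, with medians of −0.03 and −0.035.

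The OB matrix genes were among the wells of lowest Ct, with *Sparc* at Ct 17.52, 15.07, 17.33 and 14.64 and *Col1a1* at 18.87, 15.56, 18.46 and 15.19 in the WT and then the OBVEGFKO culture of female cells, followed by those of male cells. These genes mark matrix-forming cells and are not specific to OBs. Of the 4 OB matrix genes, *Postn* alone was past 2-fold, at 3.06 in the female pair with Ct values of 21.18 and 14.84, while *Sparc* was at −0.83, *Spp1* at −0.15 and *Col1a1* at 0.03. In the male pair *Postn* was at −0.43, *Sparc* at −0.15, *Spp1* at −0.13 and *Col1a1* at 0.43. Since *Mmp8*, *Mmp9* and *Mmp12* are also genes of myeloid cells, 4 leukocyte markers were read beside them. *Itgb2* had the lowest Ct of them at 23.50, 19.44, 23.34 and 19.70, and *Itgam*, *Itgal* and *Itgax* were also measured in all cultures. From WT to OBVEGFKO all 4 markers were above the reference in both sexes, as were 37 of the 76 wells in either sex. Their medians were 0.43 in female and 0.90 in male cells, and *Itgal* was past 2-fold in male cells at 1.26. In female cells *Itgam* (0.05) and *Itgal* (0.07) were close to the reference, within the robust SD of 0.53, while *Itgb2* was at 0.78 and *Itgax* at 0.99. Taking template as 2 to the power of minus Ct, which assumes equal assays and gives no share of transcripts, and leaving out the 3 wells that stood apart, the OB matrix list summed to 35.6%, 38.6%, 30.5% and 33.7% of the array, *Postn* included, and the leukocyte list to 0.354%, 0.586%, 0.283% and 0.531%. In the female pair *Postn* alone carried the rise of the OB matrix list. The 6 matricellular and adhesive genes, with *Sparc* and *Spp1* but without *Postn*, summed to 36.4%, 29.6%, 32.3% and 33.9%. *Mmp9* was 2.69, 2.62, 2.65 and 3.0 cycles above *Itgam* and 5.31, 5.97, 4.96 and 5.59 cycles above *Itgb2*, so its distance to the latter was larger after deletion in both sexes. *Mmp8* was 5.75, 4.67, 5.33 and 5.84 cycles above *Itgam* and 8.37, 8.02, 7.64 and 8.43 cycles above *Itgb2*. The part of such cells in the MMP values was not tested.

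*Mmp13* is also a gene of hypertrophic chondrocytes, and the chondrocyte markers *Col2a1* and *Hapln1* were read in the same way. *Col2a1* had Ct values of 25.05, 22.19, 28.63 and 24.63, and *Hapln1* of 28.00, 25.43, 28.58 and 26.08. Between WT cultures *Col2a1* departed by −3.99 and *Hapln1* by −0.99, both lower in male cells, while *Mmp13* was higher there. The 2 genes summed to 0.116%, 0.0871%, 0.0122% and 0.0202% of the array in the order above. Endothelial markers had high Ct values, with *Pecam1* at 29.98, 27.43, 31.72 and 30.10 and a departure of −1.22 in the male pair, *Selp* between 27.82 and 31.64, and *Sele* at 35 in 3 cultures and at 15.65 in the female OBVEGFKO culture. Without *Sele*, which stood apart, they summed to 0.00472%, 0.00368%, 0.00144% and 0.000861%. Of 4 epithelial markers, *Lama3* was lowest in Ct with values of 28.37, 24.47, 28.14 and 24.86, *Cdh1* was at 35 in male WT cells, and the list summed to 0.0144%, 0.0202%, 0.0118% and 0.0174%.

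For each gene, the wells with the most similar pattern over the 4 cultures were found by the root mean square difference of mean-centred Ct values, among 75 other wells. The closest to *Mmp9* were *Mmp10* at 0.050 and *Cd44*, which encodes a surface docking partner of MMP9, at 0.061 cycles. The closest to *Mmp2* were *Ctnna1* at 0.074 and *Mmp11* at 0.104 cycles, and to *Mmp14* the collagen genes *Col4a2* at 0.091 and *Col5a1* at 0.098 cycles. *Mmp15* was closest to *Mmp3* at 0.121 and *Ncam2* at 0.184 cycles, and *Mmp1a* to *Itgam* at 0.172 and *Col1a1* at 0.192 cycles. *Mmp8* was closest to the laminin genes *Lamb3* at 0.122 and *Lama3* at 0.254 cycles, and *Mmp13* to *Adamts8* at 0.164 and *Lamb3* at 0.241 cycles. No collagenase had another collagenase among its 2 closest wells. The shared shift between WT and OBVEGFKO enters every such pattern, so small distances are the rule on this array.

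The 3 collagenase genes lie among 10 MMP genes on mouse chromosome 9. Measured against the rest of the array, the culture that stood furthest from the others was female WT for *Mmp13*, female OBVEGFKO for *Mmp8* and male OBVEGFKO for *Mmp1a*. This was not computed with the other references. The promoters of the 3 collagenase genes are shown because they had the largest male minus female differences of the 7, in opposite directions. This ranking holds for the median change of the other wells. With the difference between the median Ct of all wells, *Mmp9* (0.68), *Mmp14* (0.49) and *Mmp15* (0.42) were larger in size than *Mmp13* (−0.33). Windows of 300 bases, from 250 before to 50 after the gene start, were taken from RefSeq (GRCm38.p6) for 5 of the 7 genes, without *Mmp2* and *Mmp9*. Capitals mark TGANTCA, the AP-1 motif long known from collagenase promoters, and AACCACA, a RUNX motif, each searched on both strands with no overlap between them. The *Mmp13* window is chr9:7272264-7272563, the *Mmp1a* window chr9:7463891-7464190 and the *Mmp8* window chr9:7558179-7558478, all on the plus strand.
Mmp13: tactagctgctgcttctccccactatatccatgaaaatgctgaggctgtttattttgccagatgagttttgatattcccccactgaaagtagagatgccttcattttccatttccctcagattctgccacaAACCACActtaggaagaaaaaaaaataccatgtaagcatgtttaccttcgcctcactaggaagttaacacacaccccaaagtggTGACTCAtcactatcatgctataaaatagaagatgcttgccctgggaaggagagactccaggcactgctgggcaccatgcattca
Mmp1a: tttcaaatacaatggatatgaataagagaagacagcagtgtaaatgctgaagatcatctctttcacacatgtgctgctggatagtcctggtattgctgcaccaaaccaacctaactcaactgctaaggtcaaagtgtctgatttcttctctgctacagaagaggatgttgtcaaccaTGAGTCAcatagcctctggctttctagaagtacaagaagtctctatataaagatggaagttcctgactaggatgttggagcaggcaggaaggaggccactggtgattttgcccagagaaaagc
Mmp8: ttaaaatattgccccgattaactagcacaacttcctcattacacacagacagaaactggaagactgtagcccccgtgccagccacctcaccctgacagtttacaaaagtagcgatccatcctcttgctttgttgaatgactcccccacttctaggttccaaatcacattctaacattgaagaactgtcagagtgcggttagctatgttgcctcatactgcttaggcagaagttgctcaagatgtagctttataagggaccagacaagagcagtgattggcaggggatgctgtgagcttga

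TGANTCA was found in the windows of *Mmp13* and *Mmp1a*, starting 35 and 73 bases before the gene start, and not in those of *Mmp8*, *Mmp14* and *Mmp15*. It occurred in 7.81% of all 32851 promoter windows. AACCACA was found in the *Mmp13* window, starting 119 bases before the gene start, and in 5.27% of all windows. TATAAA, also searched on both strands and not capitalised, was found in the windows of *Mmp13* and *Mmp1a*, starting 16 and 28 bases before the gene start. In the *Mmp8* window it was found on the opposite strand alone, 3 bases before the gene start, and *Mmp14* and *Mmp15* had no match. It occurred in 13.6% of all windows. *Mmp13* and *Mmp1a* thus share the first motif. Measured against the rest of the array, the female WT culture stood apart for the former and the male OBVEGFKO culture for the latter. A match describes the letters in the window and is no measure of binding.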

How the data were processed

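A qPCR array measured 84 genes in each of 4 OB cultures. Deposited by the authors were Ct values to 2 decimals without normalisation and a table of their own fold changes between pairs of cultures, which was not used. Per the study's methods, relative expression was normalised to housekeeping genes of the array by the ΔΔCt method, whereas the housekeeping wells were not analysed here. In its place, the median Ct change of the other wells under 35 in all cultures (69 wells) served as the reference. The departure is the reference change minus the change of the gene, at an efficiency of 2 per cycle. All 4 columns of values were used. Raw Ct values without replicates allow no test within a sex, and no test of deletion across the sexes was run. The number of cultures, with scatter of wells at high Ct, limits the precision.

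The members and gene lists were chosen with earlier results of these data known. All 7 members are named. In other lists, every MMP, TIMP and ADAMTS gene is named and, in lists of substrates and partners, genes past 2-fold from WT to OBVEGFKO, besides genes named for their levels. The 3 wells that stood apart were named after their values were seen. Of the marker lists, 1 gene is not reported here. Names follow the array layout, and 83 of 84 symbols, with 1 older symbol, are in the RefSeq gene table of GRCm38.p6. The calculation was tested on simulated data. Alternatives were other references, no normalisation, a Ct of at most 30, an efficiency of 1.9, and thresholds of 1.5-fold and 4-fold. Python 3.11.15, numpy 2.4.6, pandas 2.3.3 and matplotlib 3.10.9 were used.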

Additional observations from a re-analysis of the deposited data

Results flagged for a closer look

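Results were listed where the single culture pair of each sex, or of each genotype, departed from the array in opposite directions. None of these differences was tested, and each value rests on 2 wells. From WT to OBVEGFKO, *Mmp13* departed by 0.83 in female and −0.13 in male cells, and *Mmp1a* by −0.22 in female and 0.91 in male cells. From female to male, *Mmp1a* departed by −0.35 between WT and 0.76 between OBVEGFKO cultures, *Mmp8* by 0.48 and −0.66, and *Mmp2* by 0.08 and −0.31. The values of *Mmp2*, and those of −0.13, −0.22 and −0.35, are within the robust SD of the other wells in their comparisons (0.37 to 0.53). With the difference between the median Ct of all wells as the reference, the directions stayed opposite except for *Mmp2*, which was at 0.06 between WT and 0.32 between OBVEGFKO cultures. *Mmp13* was then at 0.07 and −0.26 by sex, *Mmp1a* at −0.98 and 0.78 by sex and −0.37 and 1.39 by genotype, and *Mmp8* at 0.46 and −0.03 by genotype. The 0.07 is no check of direction, since *Mmp13* lay at or near the array median in both female cultures. Without normalisation, *Mmp13* (4.11 and 2.71) and *Mmp1a* (3.06 and 3.75) were higher in OBVEGFKO cells of both sexes, and *Mmp1a* was at 0.06 and 0.75 from female to male.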

How the results depend on the processing

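No paired analysis across the sexes was run, since each group had 1 culture. A median is listed where it differed by the robust SD of the other wells (0.37 to 0.53) or more, and a number of genes where it differed by over 1.5 times. For the 7 genes, no departure past 2-fold changed direction under the alternatives. The other named genes were not run under them. Shares of all wells under the alternatives were not counted, except where given.

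Without normalisation, the median of the 7 genes was 3.28 in the female and 2.71 in the male pair, 0.73 between WT cultures and −0.65 for the male minus female difference. The genes at least 2-fold above then numbered 7 in the female pair, 7 in the male pair and 2 between WT cultures. In both the female and the male pair, all 76 wells were also 2-fold above. A larger value in male cells was found for 1 gene, *Mmp1a*. With the difference between the median Ct of all wells as the reference, the medians were −0.76 in the female pair, 0.76 between OBVEGFKO cultures and 0.42 for the male minus female difference. The wells that stood apart contribute to this reference in the female cultures. No gene was then 2-fold above in the female pair (0), 2 were between OBVEGFKO cultures, and 5 had a larger departure in male cells. This alternative moves all wells alike, so the turn of the count towards male cells follows from the scaling and is no result about the 7 genes. Under it, *Mmp1a* stayed positive (1.76) and *Mmp8* negative (−0.49). With the mean of the other wells, to which the wells that stood apart contribute, the genes 2-fold above numbered 0 in the female pair and 1 between OBVEGFKO cultures, and 4 had a larger departure in male cells.

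With wells of a Ct of at most 30 in both cultures, *Mmp8* was left out by construction and 0 genes were 2-fold above in the female pair. At an efficiency of 1.9, *Mmp13* was at 0.97 between WT cultures, so 0 genes were 2-fold above there. With a 1.5-fold threshold, 2 genes were above in the female pair and 1 in the male pair. At that threshold 2 were above between WT and 2 between OBVEGFKO cultures, where 1 was below. The share of all wells past 1.5-fold was not counted, so these counts are not set against the array. With 4-fold, 0 were above in the female pair and 0 between WT cultures. The median change of all 84 wells, the other wells with a Ct of at most 26, and the other wells without E01 and G06 (*Lamc1* and *Timp1*), the last chosen after seeing the data, moved none of these results.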
